A study of Saccharomyces cerevisiae with 8 samples.

Results

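The 10 genes described here encode enzymes of fatty acid and ergosterol synthesis in budding yeast. ACC1, FAS1 and FAS2 make fatty acids. ERG10, ERG13 and HMG1 act early in sterol synthesis, and ERG6, ERG2, ERG3 and ERG5 act late in it. They were chosen by name from genes on chromosomes XI, XII, XIII, XIV and XVI, with earlier results of these data known, and they are 10 of 3432 protein-coding genes that could be placed, out of 6002 in the nuclear genome. The values used in the choice were positions and scores of Rpb1 peak summits, so everything below is a description of these genes and no test was run on them.

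The study mapped RNA polymerase II by chromatin immunoprecipitation with an antibody against Rpb1, its largest subunit. All samples came from strain AM1003, which carries the HO endonuclease under galactose control (GAL::HO) and was grown overnight in YEP with raffinose. The title of each sample carries the label WT, for wild type. The 0 h group (2 immunoprecipitated libraries) was collected before galactose, and the 6 h group (2 libraries) after 6 h in 2% galactose, which switches on HO and so makes a double-strand break. Break, carbon source and time differ together between the groups and cannot be told apart, nothing in the labels says whether replicates were separate cultures, and the 4 input libraries were not analysed here.

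Each library was a list of summits, the points of highest signal within a peak, with 1074 to 1288 summits per list. A summit has a score, a −log10 of the p-value or q-value of the peak caller, which grows with read depth. Scores and ranks were therefore read only within a library, and the depth is unknown. The lists hold no peak width and no occupancy level, so no fold change exists for these genes. A library without a summit in a gene may still have had polymerase there.

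Fatty acid synthesis starts when acetyl-CoA carboxylase makes malonyl-CoA, which fatty acid synthase, a complex of alpha and beta subunits, joins into long chains. Ergosterol, the sterol of the yeast membrane, is made from acetyl-CoA through the mevalonate pathway and a series of late ring and side-chain changes that need oxygen. Both routes feed the membranes of growing cells and are active in growing yeast.

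At 0 h a summit lay inside each of the 10 genes in both libraries, a property of 8.51% of the placed genes that the choice of genes had in view. At 6 h, FAS1, FAS2 and HMG1 had a summit inside in both libraries. ACC1, ERG10 and ERG5 had none inside in either. The remaining 4 genes, ERG13, ERG6, ERG2 and ERG3, had one inside in exactly 1 of the 6 h libraries, as did 25.3% of the placed genes with a summit inside in both 0 h libraries. With 500 bp added on each side, all members but ERG10 and ERG2 had summits in all 4 libraries. After galactose, summits past the stop codon were found at ACC1 and ERG5 in both libraries, and at ERG10, ERG6, ERG3 and HMG1 in 1 library each. Before galactose HMG1 had such summits in both libraries as well, and ERG5 had one in replicate 1. The FAS1 summits lay in the first part of the gene, as the map of summits along the genes shows.

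**Figure D1:**
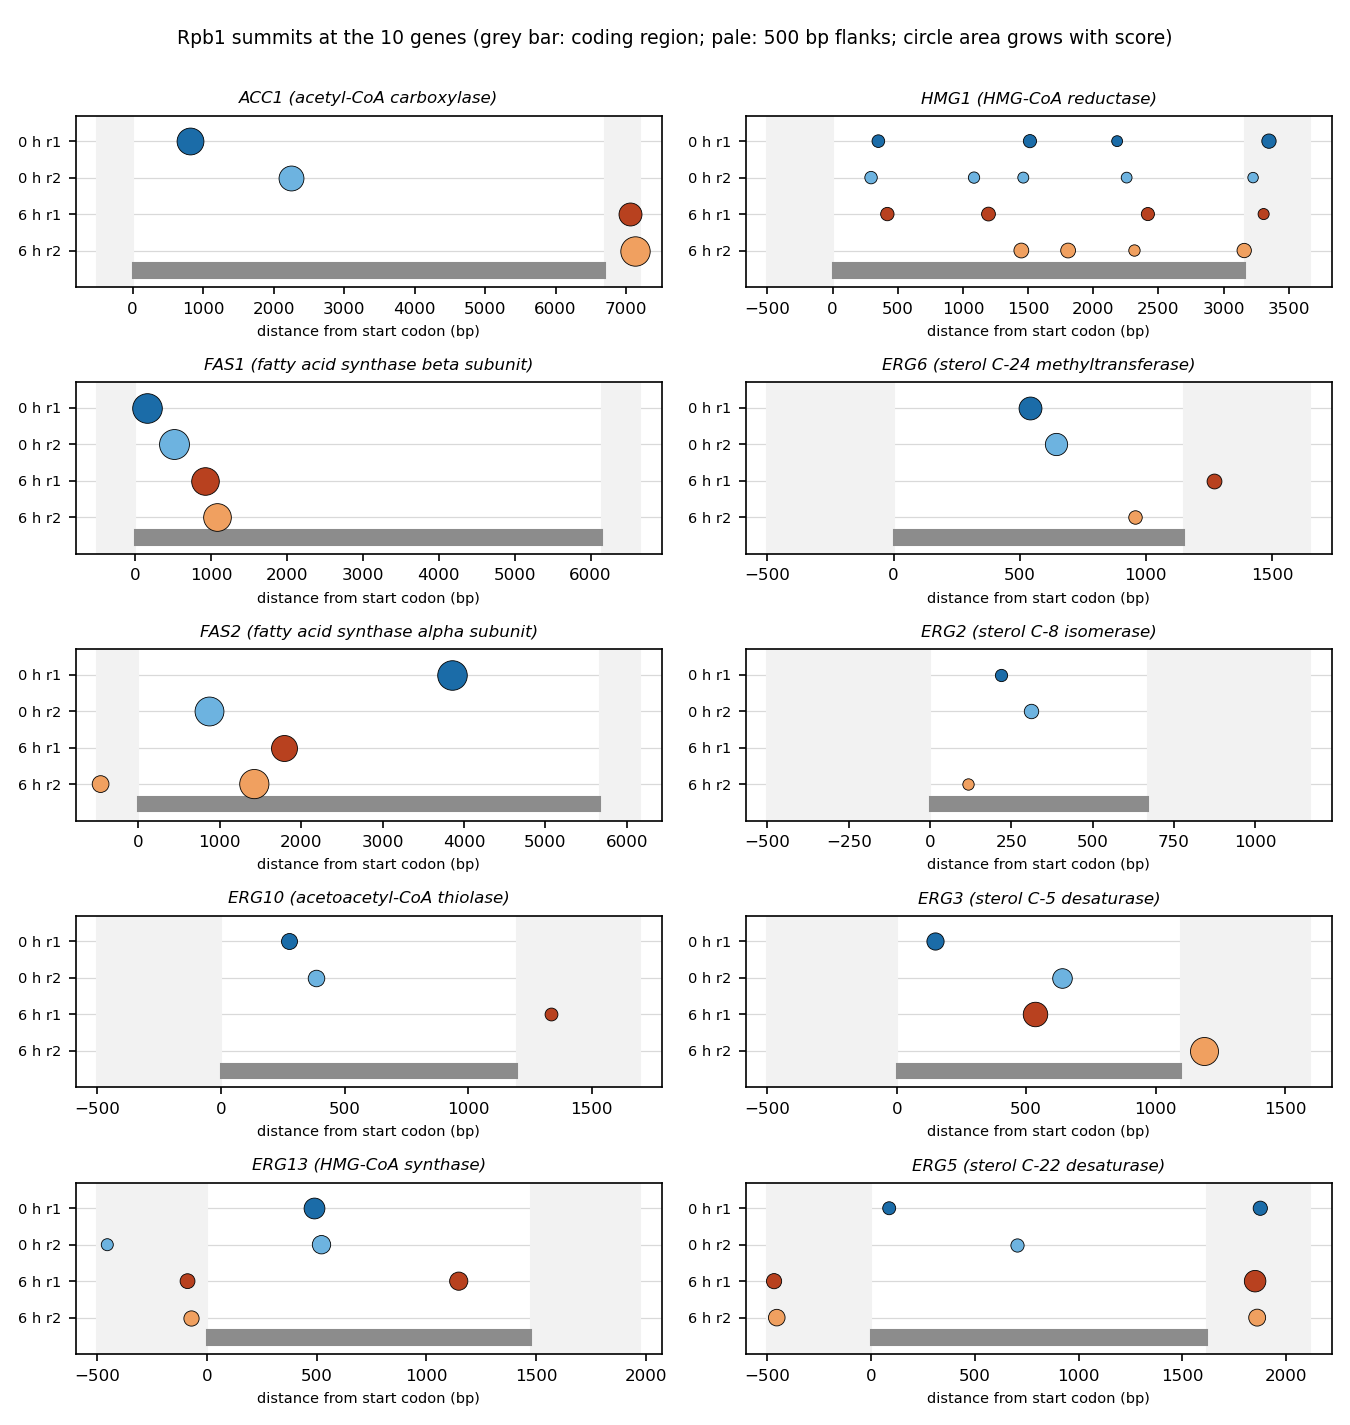
Positions of all Rpb1 summits in each of the 10 genes and within 500 bp, with distance from the start codon in bp on the horizontal axis and 1 line per library (r1 and r2 are replicates 1 and 2). Circle area grows with the score, which is comparable only along a line; FAS1 summits keep to the start of the gene in all 4 libraries, while both 6 h summits of ACC1 lie past its stop codon.

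ACC1, encoding the acetyl-CoA carboxylase that commits carbon to fatty acids, has a coding region of 6702 bp. Its only summit lay 815 bp from the start codon in 0 h replicate 1 and 2244 bp from it in 0 h replicate 2. At 6 h the only summits lay 357 and 425 bp past the stop codon, at 654316 and 654248 bp of chromosome XIV as the lists number it, in a genome build that no source names. The groups did not overlap, and both 6 h summits were inside SMM1, a gene on the opposite strand whose stop codon faces that of ACC1 across 131 bp. The signal of the 2 genes cannot be told apart there. The best-scoring summit of the window was therefore 5562.5 bp further downstream at 6 h, while the 0 h replicates differed by 1429 bp and the 6 h replicates by 68 bp. ACC1 has such a value only where the window takes in these SMM1 summits. With gene bodies alone, with 250 bp added, with gene positions 250 bp higher or with summits inside other genes left out, it had no 6 h summit.

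FAS1 and FAS2 encode the beta and alpha subunits of fatty acid synthase. In FAS1, with a coding region of 6156 bp, each library had 1 summit. Before galactose it lay 154 bp (replicate 1) and 513 bp (replicate 2) into the gene, and after galactose 914 and 1077 bp into it. The groups did not overlap, with a difference of 662 bp between the means (333.5 ± 254 against 995.5 ± 115, SD, n = 2 each), and all 4 summits lay within the first 17.5% of the coding region.

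In FAS2, with a coding region of 5664 bp, the summits inside the gene lay 3857 and 875 bp past the start codon before galactose and 1793 and 1426 bp past it afterwards. Both 6 h positions fell between the 0 h positions, which were 2982 bp apart, so the groups overlapped. The difference of -756.5 bp rests on 0 h replicate 1. Without that library it was 734.5 bp, and without 0 h replicate 2 it was -2247.5 bp. A further summit lay 461 bp upstream of the FAS2 start codon in 6 h replicate 2. Just past the 500 bp limit, the other 3 libraries had summits 536, 574 and 606 bp upstream of the start codon, all inside the neighbouring gene SSO1.

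The fatty acid genes had the best scores of the 10 genes in each library except 6 h replicate 1 and 6 h replicate 2, where ERG3 scored above ACC1 and above FAS1, respectively. The ACC1 scores ranked at 6 h, 22.3 and 37.8, are those of the summits inside SMM1, which cannot be assigned to ACC1. FAS1 scored 38.5 and 39.2 before galactose and 33.1 and 33.3 after it, and FAS2 scored 38.2 and 36.4, then 29.1 and 37.3. Of all summits in a list, at most 88.7% scored lower than the best of these 10 genes.

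ERG10 encodes acetoacetyl-CoA thiolase, which joins a pair of acetyl-CoA molecules at the entry to the mevalonate pathway. Its summits lay 276 and 384 bp from the start codon of the 1197 bp coding region at 0 h, with scores of 9.77 and 10.6. In 6 h replicate 1 the only summit lay 138 bp past the stop codon, with a score of 5.60. In 6 h replicate 2 there was none within 500 bp, and the nearest summit lay 1193 bp past the stop codon. ERG10 was thus without a 6 h summit inside the gene, and the summit beyond its end was seen in a single library.

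ERG13 encodes HMG-CoA synthase, the next enzyme. The 0 h summits inside its 1476 bp coding region lay 486 and 522 bp from the start codon, with scores of 17.9 and 13.6. At 6 h, replicate 1 had summits 1148 bp from the start codon (score 13.3) and 89 bp upstream of it (8.15), and replicate 2 had only a summit 74 bp upstream of the start codon (8.70). By the gene positions used, both 6 h libraries thus had a summit between ERG13 and the tandem gene PGA3, which are 225 bp apart. Distances to codons are uncertain by about 203.5 bp, more than the distance of either summit from ERG13. At 0 h no summit lay between ERG13 and PGA3, although replicate 2 had one inside PGA3, 455 bp upstream of the ERG13 start codon. The best-scoring summits of the 6 h replicates differed by 1222 bp, so the mean difference of 33 bp describes neither of them. It was -578 bp without 6 h replicate 1 and 644 bp without 6 h replicate 2.

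HMG1 encodes the main HMG-CoA reductase of aerobic yeast, the enzyme that sets the pace of the mevalonate pathway. It had the most summits of the 10 genes, with 4, 5, 4 and 4 in the gene and within 500 bp in 0 h replicates 1 and 2 and 6 h replicates 1 and 2. Inside the 3165 bp coding region there were 3, 4, 3 and 4. As many or more were found inside 8, 2, 11 and 2 placed genes of the respective libraries, HMG1 included, out of 307 to 419 genes with any summit inside.

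The HMG1 summits recurred at similar places. Summits lay 2183 to 2419 bp from the start codon in all 4 libraries, and 3158 to 3348 bp from it, around the stop codon, in all 4. Near the start of the gene, summits at 295 to 420 bp were present in 3 libraries and missing from 6 h replicate 2. Summits at 1448 to 1514 bp were present in 3 libraries and missing from 6 h replicate 1. Those at 1085 to 1196 bp were present in 2, 0 h replicate 2 and 6 h replicate 1. In 6 h replicate 2, 2 summits had the same score of 8.11, at 1448 and 1807 bp, of which the one nearer the start codon was used as its best.

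All HMG1 scores were low, from 3.06 to 8.11. The places were set apart by gaps of more than 250 bp between neighbouring summits. By that rule the best summit was at a different place in each library, but the best summits of the 6 h libraries were only 252 bp apart. Best positions were 3348 and 295 bp before galactose, and 1196 and 1448 bp after it fell between them. The difference of -499.5 bp turned to 417.5 bp with summits inside the gene alone, to 171 bp with the score-weighted mean position of all summits, and to 1027 bp without 0 h replicate 1. Without 0 h replicate 2 it was -2026 bp. No direction can be read for HMG1.

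ERG6 encodes the methyltransferase that adds the methyl group to the sterol side chain. Each library had 1 summit, 539 and 644 bp from the start codon of the 1152 bp coding region at 0 h, with scores of 22.1 and 20.8. At 6 h it lay 1272 bp from the start codon in replicate 1, which is 121 bp past the stop codon, and 958 bp from it in replicate 2, with scores of 8.17 and 6.39. The groups did not overlap, and the means were 591.5 ± 74.2 and 1115 ± 222 bp (SD, n = 2 each), a difference of 523.5 bp. Within its own list, the ERG6 summit outscored 77.3% and 75.9% of summits at 0 h and 54.3% and 32.8% at 6 h. These shares come from lists of different length and depth and show no change in occupancy.

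ERG2 encodes the sterol C-8 isomerase and has the shortest coding region of the 10 genes, 669 bp. Its summits lay 218 and 309 bp into the gene in the 0 h libraries and 116 bp into it in 6 h replicate 2, with scores of 4.96, 7.61 and 3.97. In 6 h replicate 1 no summit lay within 500 bp, and the nearest was 1716 bp upstream of the start codon. The 6 h summit lay nearer the start codon than both 0 h summits, a position that rests on 1 library.

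ERG3 encodes the sterol C-5 desaturase. Its single summits lay 148 and 638 bp into the gene before galactose and 533 and 1188 bp after the start codon at 6 h, with a coding region of 1098 bp, the last being 91 bp past the stop codon. The groups overlapped, because 6 h replicate 1 lay 105 bp nearer the start codon than 0 h replicate 2. The mean difference was 467.5 bp, against gaps of 490 and 655 bp between replicates. It was 222.5 bp without 0 h replicate 1 and 140 bp without 6 h replicate 2, and was 712.5 bp and 795 bp without the other library of each group. The ERG3 summit scored 11.7 and 15.7 before galactose, below the upper quartile of both lists. It scored 25.6 and 34.2 after galactose, above the upper quartile of both, the latter score being that of the summit past the stop codon. Standing within lists of unknown depth shows no change in occupancy.

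ERG5 encodes the sterol C-22 desaturase, a cytochrome P450. At 0 h, replicate 1 had summits 87 bp from the start codon (score 5.76) and 260 bp past the stop codon (7.32), and replicate 2 had a summit 705 bp from the start codon (6.09). At 6 h no summit lay inside the 1617 bp coding region, but both libraries had a summit past the stop codon, at 235 and 245 bp, with scores of 19.3 and 11.2. Both also had one upstream of the start codon, at 468 and 455 bp, with scores of 8.62 and 10.7.

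The ERG5 summits past the stop codon lay in the 441 bp between ERG5 and the convergent gene BUD22, so they cannot be assigned to either gene. A summit was at that place in 0 h replicate 1 too. Taking the best summit of each library, the difference was 565.5 bp, but the groups overlapped. Without 0 h replicate 2 it was -20 bp, and without 0 h replicate 1 it was 1151 bp. With 250 bp added in place of 500 bp, which leaves out the summit past the stop codon of 0 h replicate 1, it was 1460 bp, and with the score-weighted mean position of all summits it was 36.3 bp.

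Across the 10 genes, 3 were lost by the gene-body rule, that is, both 0 h libraries placed a summit inside and no 6 h library did. These were ACC1, ERG10 and ERG5. Among the 292 placed genes with a summit inside in both 0 h libraries, which all 10 genes are, 36.6% were lost, and of all placed genes 3.12% were. The share of 3 in 10 is near the 36.6% of comparable genes and is not a result about these enzymes. No member could be gained by that rule, since all had 0 h summits. All 3 losses depended on the gene ends, as 1 gene was lost with 250 bp added and 0 with 500 bp added. Without 6 h replicate 1, or without 6 h replicate 2, 5 genes were lost, because a single 6 h library then had to lack a summit.

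Genes with summits inside in all 4 libraries were 3 of 10, against 38% of the comparable genes. With 500 bp added the count was 8 of 10, against 77.4% of the comparable genes and 14.8% of all placed genes. ACC1 is among the 8 only by its 6 h summits inside SMM1, and the count was 7 with summits inside other genes left out. By these counts the fatty acid and sterol genes resembled other genes with 0 h summits.

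The position of the best summit could be compared in those 8 genes. In 3 of them, ACC1, FAS1 and ERG6, the 6 h summits were both further downstream than either 0 h summit, and in 0 of them were both upstream. ACC1 is counted here only by 6 h summits inside SMM1, which cannot be assigned to ACC1. In the other 5 genes the groups overlapped. Both best summits of the 6 h libraries were past the stop codon in 2 of the 8, ACC1 and ERG5, against 31.4% of the comparable genes. Of the 226 comparable genes followed in the same way, 55.3% had both 6 h summits downstream and 8.41% upstream, and of all 507 followed genes 40% and 13.8%. With 2 libraries against 2, an exact permutation test over libraries cannot reach p = 0.05, and the smallest p it allows is 0.33. The count of downstream genes was 2 with summits inside other genes left out, 6 without 0 h replicate 1 and 5 without 6 h replicate 2.

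The mean 6 h position was downstream of the mean 0 h position in 6 of the 8 genes, against 187 of the 226 comparable genes (82.7%) and 342 of all 507 (67.5%), so this count is near the background. The median over the 8 was 495.5 bp (quartiles -100 and 590 bp), with ACC1 counted by its summits inside SMM1. With summits inside other genes left out it was 467.5 bp. The median was 74 bp over all 507 followed genes (quartiles -23.5 and 376 bp) and 314 bp over the 226 comparable genes (quartiles 43.6 and 598 bp). Without 0 h replicate 2 the median over the followed members was 313.5 bp. Replicates were further apart in the 8 genes than elsewhere, with a median gap of 830.5 bp at 0 h and 283 bp at 6 h, against 116.5 and 98.5 bp in the comparable genes. The median coding region was 1546.5 bp over the 10 members and 1188 bp over the comparable genes. The widest 0 h gaps were those of HMG1 (3053 bp), FAS2 (2982 bp), ACC1 (1429 bp) and ERG5 (1171 bp). HMG1, FAS2 and ACC1 have long coding regions of 3165, 5664 and 6702 bp. FAS1, with 6156 bp, had a gap of 359 bp. Whether gene length accounts for the wider gaps was not tested.

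**Figure D2:**
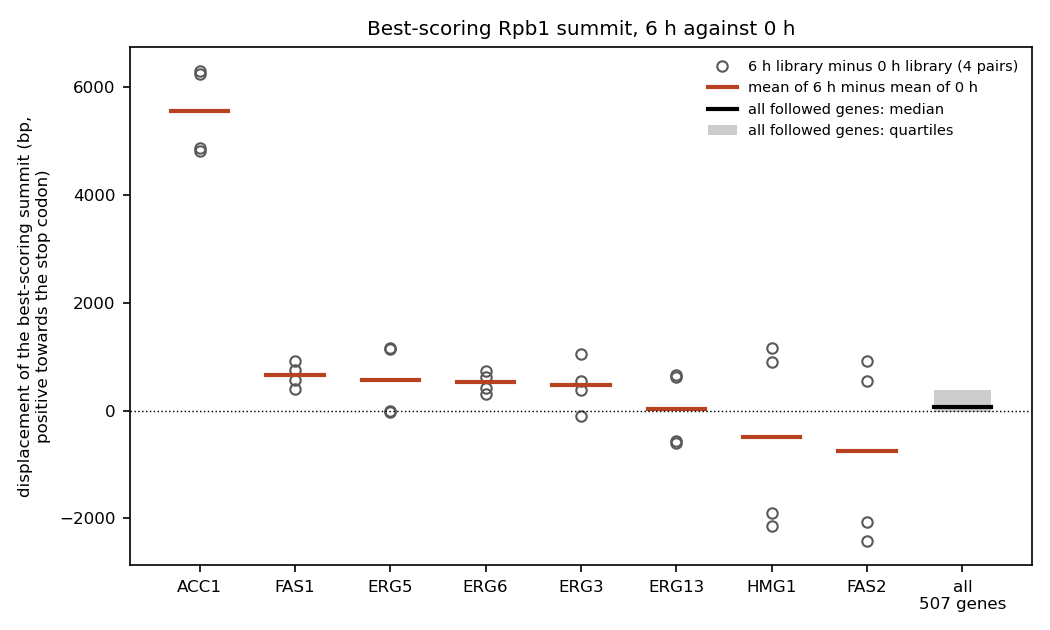
Displacement of the best-scoring summit at 6 h against 0 h in the 8 genes with summits in all 4 libraries, in bp along the gene, positive towards the stop codon. Open circles are the 4 differences between a 6 h and a 0 h library, and red lines the difference of the means. The grey bar and black line are the quartiles and median of all 507 followed genes. All 4 circles are above 0 in ACC1, FAS1 and ERG6, with both 6 h summits of ACC1 inside the neighbouring gene SMM1.

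By score, FAS1, FAS2, ACC1 and ERG6 were above the upper quartile of each 0 h list. At 6 h, those above it were FAS1, FAS2, ACC1, ERG3 and ERG5 in replicate 1 and FAS1, FAS2, ACC1 and ERG3 in replicate 2. The ACC1 summits counted at 6 h are those inside SMM1. The ERG5 summit counted in 6 h replicate 1 lay 235 bp past the stop codon, between ERG5 and BUD22, and cannot be assigned to either gene. The ERG3 summit counted in 6 h replicate 2 lay 91 bp past the stop codon. Above the list median were 7 and 8 members before galactose, then 7 and 5. HMG1 was at or below the list median in every library, as the plot of scores by library shows.

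**Figure D3:**
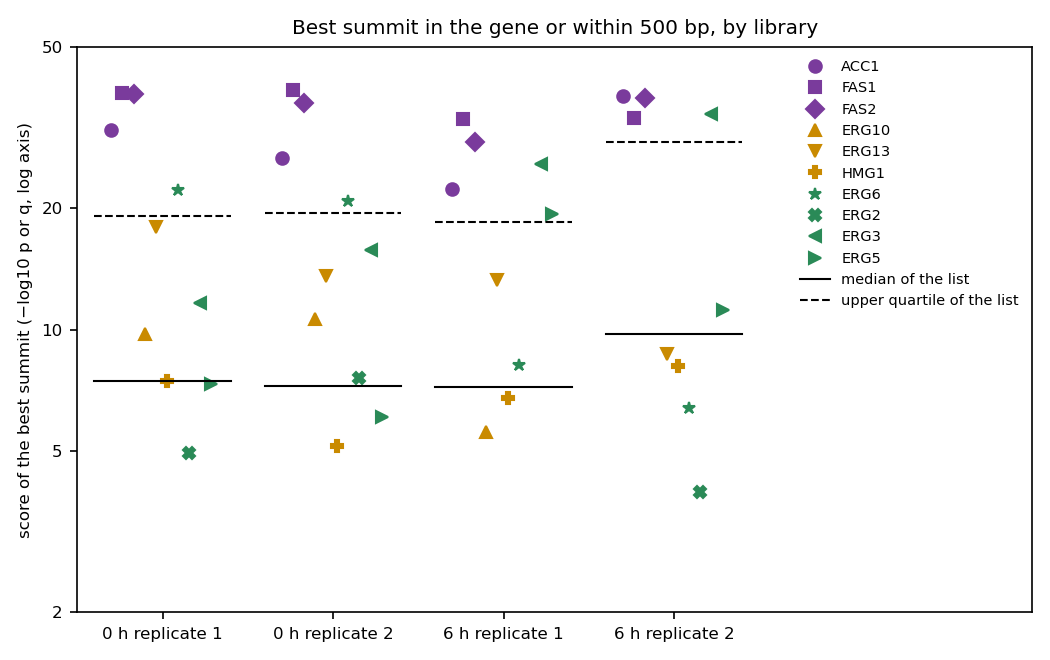
Score of the best summit of each gene in the gene or within 500 bp (−log10 p or q, log axis) in the 4 libraries, with purple symbols for fatty acid, yellow for early sterol and green for late sterol genes. Solid and dashed lines give the median and upper quartile of all summits in that list, and FAS1 and FAS2 lie above the dashed line in all 4 libraries.

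The list of other fatty acid and sterol genes held 52 genes, of which 29 could be placed. Desaturase gene OLE1 and the sterol genes ERG1, ERG9, ERG11 and ERG25 were among the 23 that could not. In the gene or within 500 bp, 14 of the 29 had a summit in at least 1 library, 9 had one in at least 3 libraries and 6 in all 4. Over all placed genes, 1316 of 3432 (38.3%) had one in at least 1 library, 21.3% in at least 3 and 14.8% in all 4. A summit inside the gene in both 0 h libraries, which the 10 members had by choice, was present in 1 of the 29, against 8.51% of all placed genes. That gene was ERG28, for a scaffold protein of the sterol enzymes.

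ERG28 was lost, with 0 h summits 226 and 377 bp from the start codon, scores of 7.14 and 8.39, and no 6 h summit within 500 bp. This 1 loss in 29 is near the 3.12% of all placed genes, and the list had 0 losses with the better-scoring 50% of summits or with gene positions 250 bp higher. OAR1, for a mitochondrial 3-oxoacyl reductase of fatty acid synthesis, was the only one gained, against 2.19% of all placed genes. It had 6 h summits 81 and 75 bp from the start codon, with scores of 7.69 and 10.3, and its 0 h replicate 2 had a summit 264 bp upstream of the start codon. The list had 0 gains with 250 or 500 bp added or with gene positions 250 bp lower, and 2 gains without 6 h replicate 1.

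The 6 other genes followed in all 4 libraries were ACS2, ELO3, FAA4, IDI1, ERG24 and CYB5, and in each the groups overlapped. FAA4, for a fatty acyl-CoA synthetase, had its best summit just past the stop codon, at 24 and 56 bp at 0 h and 35 and 58 bp at 6 h. Its scores of 34.4, 28.6, 43.8 and 53.5 were the highest of the 29 genes. ERG24, for the sterol C-14 reductase, had summits 126, 258, 158 and 227 bp past its stop codon in 0 h replicates 1 and 2 and 6 h replicates 1 and 2. The ERG24 summits of both replicates 2 were inside the neighbouring gene HCH1. The best summits of FAA4 and ERG24 thus lay past the stop codon before galactose as well, those of ERG24 partly in a neighbour.

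IDI1, for isopentenyl diphosphate isomerase, had summits 737 and 946 bp after its start codon in the 0 h libraries, and 828 and 935 bp after it in the 6 h libraries. ACS2 encodes the acetyl-CoA synthetase that supplies cytosolic acetyl-CoA. Its best summits lay 374 and 394 bp past the stop codon at 0 h, 381 bp past it in 6 h replicate 1, and 1358 bp from the start codon in 6 h replicate 2. A summit inside ACS2 was present in 0 h replicate 1 as well, but was not the best there. ELO3, a fatty acid elongase gene, had its best summits 1314, 826, 1245 and 1199 bp from the start codon in the same order of libraries, the first of them inside the neighbour VID22. CYB5, the cytochrome b5 gene, had summits 148 bp upstream of the start codon and 32 bp past the stop codon at 0 h, and 144 and 310 bp upstream at 6 h. The median displacement over the 6 genes was 3.5 bp.

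Summits in 3 libraries were found at ERG27, PPT2 and OAR1. ERG27, for the sterol 3-keto reductase, lacked one in 0 h replicate 1 and had summits 132 bp past the stop codon in 0 h replicate 2, 84 bp past it in 6 h replicate 1, and 866 bp from the start codon in 6 h replicate 2, the first of these inside the neighbour APC9. PPT2, for a mitochondrial phosphopantetheine transferase, lacked one in 6 h replicate 1, and its summits lay 5, 18 and 253 bp past the stop codon, the last inside the neighbour ATG5. At HMG2, which encodes the other HMG-CoA reductase, none of the libraries gave a summit within 500 bp, against 4 or 5 at HMG1. No summit was found either at ERG8 or ERG12, which encode the mevalonate pathway kinases, and FAA1, for the other main acyl-CoA synthetase, had none.

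**Figure D4:**
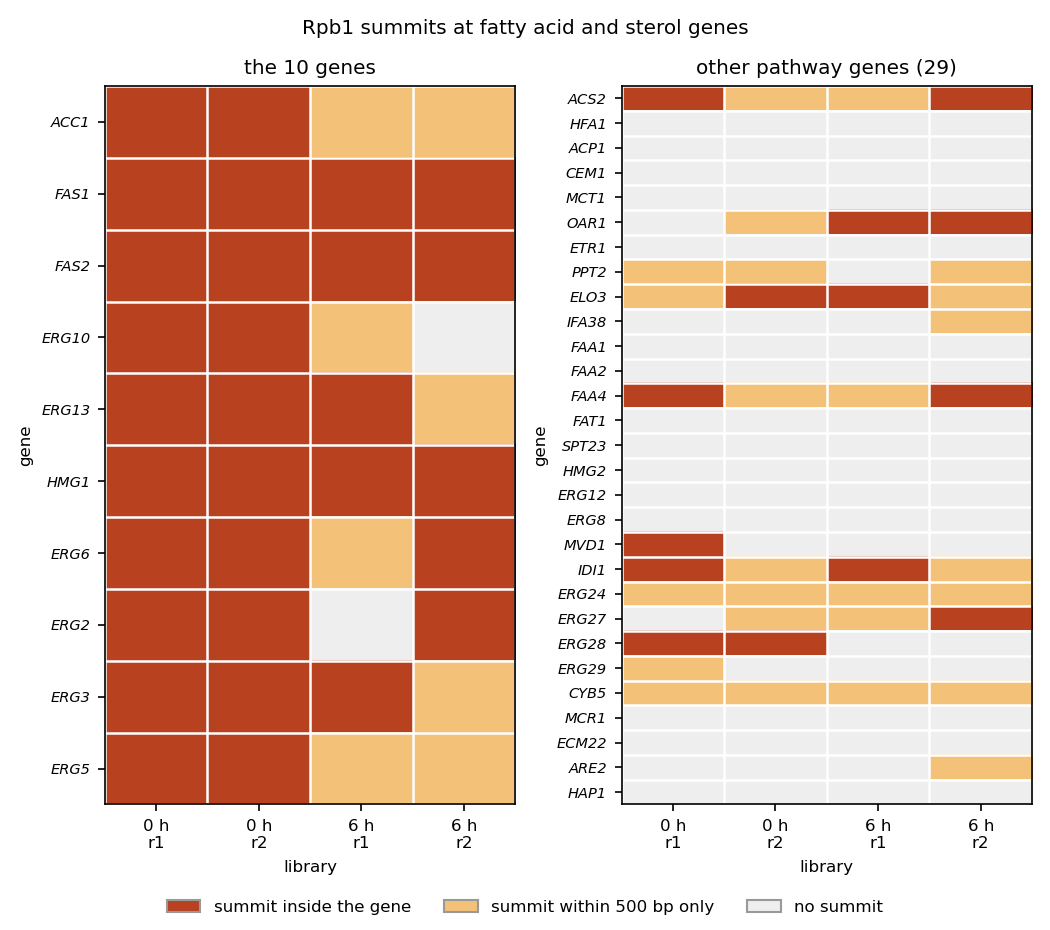
Presence of Rpb1 summits in the 4 libraries (columns, r1 and r2 are replicates) at the 10 genes (left) and the 29 other placed pathway genes (right). Dark red marks a summit inside the gene, orange a summit within 500 bp only and pale grey none; all 10 genes on the left are dark red in both 0 h columns, which the choice of genes had in view.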

How the data were processed

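The authors deposited 1 list of peak summits per immunoprecipitated library, not pooled, each summit with a −log10 p-value or q-value score. The submitters' processing notes name MACS2 2.2.7.1, Bowtie2 2.2.4, fastp 0.20.1 and SAMtools 1.10 but no roles. What build and peak threshold were applied, and whether inputs served as control, is not given in the sources used here. Gene positions are those of RefSeq assembly R64, and strands follow from the systematic names. A chromosome was used where at least 10 of 259 landmark genes (small nucleolar RNAs, glycolytic enzymes, translation factors and ribosomal proteins) lay on it and their best shift against the summits, in steps of 100 bp up to 12000 bp, was within 500 bp. This held for 8 of 16 chromosomes. On the members' 5 chromosomes the best shift was 0 to -200 bp and genes were used unshifted, where 63.0% (chromosome XIII, with 5 members) to 85.9% of landmark and library pairs had a summit within 250 bp. The landmark nearest to ERG10 lacked a summit within 250 bp in all 4 libraries, and that nearest to ERG5 in 2. Distances to codons carry an uncertainty of up to about 203.5 bp, the largest mean offset of landmark summits on these chromosomes (that of chromosome XI), and so does the choice of summits within a window. The distance between 2 given summits does not depend on it.

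For each gene and library, the best-scoring summit in the gene or within 500 bp was taken, a tie going to the one nearer the start codon. Genes called lost or gained used the gene body alone. "Comparable" genes are those with a summit inside in both 0 h libraries. Members and lists were chosen with earlier results of these data known. All 10 members are named, with those other pathway genes that had a summit in at least 3 libraries or were gained or lost, and HMG2. ERG8, ERG12, FAA1, OLE1, ERG1, ERG9, ERG11 and ERG25, and the neighbours SSO1, BUD22, HCH1, VID22, APC9 and ATG5, were named after their values were seen. Scripts ran in Python 3.11.15 with numpy 2.4.6 and pandas 2.3.3 and were run on simulated summits. That run allowed an error wider than the simulated displacement, so passing it does not show that the displacement was recovered. The planned promoter motif search was not run.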

Additional observations from a re-analysis of the deposited data

How the results depend on the processing

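Alternatives were the gene body alone, 250 bp added, the better-scoring 50% of summits, gene positions moved by 250 bp either way, summits inside other genes left out, a score-weighted mean position, and each library left out in turn. Genes with summits in all 4 libraries, 8 of 10, were 3 with gene bodies alone and 4 with the better-scoring 50% of summits, and 8 to 9 with a library left out. They were 7 with 250 bp added, with gene positions 250 bp higher or with summits inside other genes left out. Genes with both 6 h summits downstream, 3, were 1 with gene bodies alone and 4 to 6 with a library left out. They were 2 with the better-scoring 50% of summits and 2 with summits inside other genes left out. The median displacement of 495.5 bp was 319 bp with the score-weighted mean position and 313.5 to 608.5 bp with a library left out. Lost members, 3, were 1 with 250 bp added, 0 with 500 bp added and 3 to 5 with a library left out. Of the other pathway genes, the 6 with summits in all 4 libraries were 0 with gene bodies alone, 2 with 250 bp added, 3 with the better-scoring 50% of summits and 6 to 8 with a library left out. Their 1 loss became 2 with 250 bp added, 0 with the better-scoring 50% of summits, 0 with gene positions 250 bp higher and 1 to 2 with a library left out, without 0 h replicate 2 giving the 2. Their 1 gain, examined under alternatives chosen after seeing the data, became 0 with 250 bp added, 0 with 500 bp added, 0 with gene positions 250 bp lower and 1 to 2 with a library left out. The displacement changed sign for HMG1 with gene bodies alone (417.5 bp) and with the score-weighted mean (171 bp), and for ERG13 with the latter (-77.6 bp). With a library left out it ran from -2247.5 to 734.5 bp in FAS2, -578 to 644 bp in ERG13, -2026 to 1027 bp in HMG1 and -20 to 1151 bp in ERG5. For ERG5 it was 1460 bp with 250 bp added or with gene positions 250 bp higher. FAS1, ERG6 and ERG3 stayed downstream under each alternative that gave a value, although the groups overlapped in ERG3. ACC1 did so too, but it had a value only where the window took in the summits inside SMM1. The cause of the changes was not tested, except that wider windows take in more summits and rules over fewer libraries are easier to meet.

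The 0 h and 6 h groups use the same replicate numbers. Over 507 genes, libraries with the same number deviated from their group means with a correlation of 0.031, and the numbers were not taken as pairs. A replicate block, averaged over the 2 pairs, gave 6.5 genes downstream, a median of 606.5 bp, 5 lost members, 3 lost other genes and 3 gained other genes, since only 1 library per time enters each pair. Depth is unknown, so a missing summit cannot be told from low depth.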
